A study of Homo sapiens with 6 samples.

Results

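The baseline transcriptome of A375 cells was read from the 2 libraries treated with vehicle alone, out of 6 libraries in the series. Those 2 are the libraries whose treatment label is DMSO, and the genes in them were ranked by their mean level with no reference to the other treatments. A375 is an established line from a human melanoma with a mutated, constantly active BRAF kinase, so the data describe 1 line in culture and not melanoma at large. The cells were kept for 72 h in supplemented RPMI with DMSO at 0.01%, total RNA was depleted of ribosomal RNA, and libraries were sequenced. The other 4 libraries, 2 each from cells given palbociclib, a CDK4 and CDK6 inhibitor, or GSK3326595, a PRMT5 inhibitor, enter here only through a common scaling of library size. The labels number the vehicle libraries as replicates 1 and 2 but do not say whether they were separate cultures, so the spread given as SD may be technical.

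Melanoma cells vary between a melanocytic state, in which SOX10 and MITF drive the genes of pigment synthesis, and dedifferentiated states, in which those genes are silent and receptors such as AXL, mesenchymal proteins and neural crest factors are made. An activated BRAF kinase keeps the MEK and ERK kinases on, and ERK induces both its own feedback inhibitors and cyclin D1. Cyclin D1 with CDK4 or CDK6 opens the G1 phase by phosphorylating the RB protein, the proteins of the CDKN2A and CDKN2B locus block that step, and PRMT5 with its partner WDR77 places symmetric methyl marks on arginines of splicing and chromatin proteins.

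Total counts were 17540043 and 19643715 in replicates 1 and 2, and 20751 and 20519 genes had at least 1 count. Levels are given in CPM, counts per scaled library of 1000000, and 1 count was worth 0.0557 CPM in replicate 1 and 0.0520 CPM in replicate 2. A gene was taken as detected from 1 CPM in both libraries, as moderate from 10 CPM and as abundant from 100 CPM. Of 28395 genes listed, 14193 were detected (50.0%), 9901 reached 10 CPM (34.9%), 2283 reached 100 CPM (8.04%) and 6740 had a count of 0 in both libraries (23.7%). Among 19175 protein-coding genes, 12702 were detected (66.2%), 9626 reached 10 CPM (50.2%), 2263 reached 100 CPM (11.8%) and 2698 were at 0 in both (14.1%). A count of 0 in both libraries allows a level of up to 0.0807 CPM (3 counts over both libraries, counting error only). All 13 mRNA genes of the mitochondrial genome, which every such cell expresses, were also listed at 0, so a 0 in these tables can stand for a gene that was not counted. The median protein-coding gene had a mean of 11 CPM, and the median among those detected was 32.4 CPM. The 10 most abundant genes took 6.71% and 6.77% of the counts and the 1000 most abundant took 47.9% and 48.9%, so the counts were spread over the genes to a like degree in both libraries.

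Structural RNAs and genes of protein synthesis, glycolysis and the cytoskeleton headed the ranking. RN7SL1, an RNA of the signal recognition particle, had 10073 and 11820 CPM, and its near-identical copy RN7SL2 had 10000 and 11014 CPM, so the split of reads between them is uncertain. RN7SK, RMRP and RPPH1, the RNAs of the 7SK particle, RNase MRP and RNase P, had means of 8097, 6729 and 5959 CPM. MALAT1, a long non-coding RNA of the nucleus, had 5015 and 4025 CPM. Among protein-coding genes EEF1A1, the elongation factor that brings aminoacyl-tRNA to the ribosome, led with 8168 and 8218 CPM. GAPDH followed with 5013 and 5794 CPM and ACTB, cytoplasmic actin, with 3264 and 3744 CPM. The giant scaffold gene AHNAK (3689 and 3155 CPM), the actin gene ACTG1 (3070 and 3445 CPM) and SERPINE2, a secreted inhibitor of serine proteases (3186 and 3257 CPM), came next. ENO1 and PKM, glycolytic enzymes, EEF2, an elongation factor, and PLEC, the linker protein plectin, completed the 10 highest protein-coding genes, with means from 2927 to 3207 CPM. Of the 100 highest protein-coding genes by CPM, 20 encoded ribosomal proteins and 8 glycolytic enzymes. Long genes gather more reads at the same transcript number, so an order among genes is given below as CPM per kilobase of exon, and CPM describes each gene by itself. On that scale 41 of the 100 highest encoded ribosomal proteins and AHNAK fell from place 4 to below the top 100, with 178 CPM per kilobase.

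**Figure D1:**
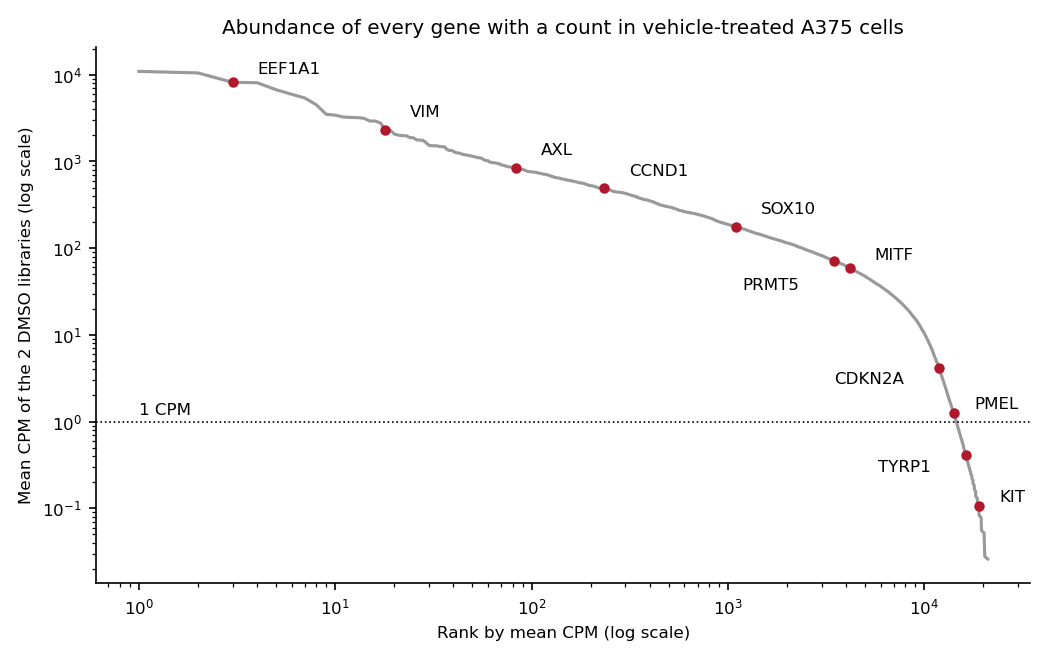
Mean CPM of the 2 DMSO libraries (vertical log scale) against the rank of each gene with a count (horizontal log scale), with 11 genes marked. AXL and CCND1 sat at ranks 83 and 233, while PMEL and TYRP1, pigment genes, sat near or under the dotted line at 1 CPM.

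The label of a melanoma line was set against marker genes first. SOX10 and MITF, which define the melanocyte lineage, were detected in both libraries, and so were AXL, CCND1 and PRMT5. Pigment markers of a differentiated melanocyte were at or near the bottom of the range: TYR and DCT had a count of 0, TYRP1 was under 1 CPM in both libraries, MLANA was under 1 CPM in replicate 2, and PMEL was detected just above 1 CPM. Blood markers were nearly empty, with 4 of 14 detected (28.6%, against 66.2% of protein-coding genes) and 6 at 0. Their summed levels were 101 and 92.2 CPM, most of it from CD68 (89.0 and 81.8 CPM). CD68 is a lysosomal protein that cells other than macrophages also make. The leukocyte marker PTPRC had 1 count in all, the beta-globin gene HBB had none, and CD14 of monocytes had 0.223 and 0.208 CPM. Of 12 keratinocyte and epithelial markers 6 were detected (50%, against 66.2% of protein-coding genes). They were led by KRT18 (524 and 588 CPM) and KRT8 (157 and 166 CPM), the keratins of simple epithelia. DSP, CLDN4 and the keratin KRT10 were moderate, with means of 39.3, 24.4 and 21.0 CPM. KRT5 (0.223 and 0.468 CPM) and EPCAM (0.0557 and 0.0520 CPM) were under 1 CPM, and CDH1 was at 0. KRT5 was at 0.223 CPM without replicate 2. Fibroblast and endothelial markers had 5 of 13 detected (38.5%, against 66.2% of protein-coding genes) and summed levels of 44.0 and 33.4 CPM. The receptor gene PDGFRB, with a mean of 24.6 CPM, was the only member at 10 CPM or more. FAP had 0.725 and 0.312 CPM (0.312 CPM without replicate 1) and PECAM1 had 3.40 and 4.01 CPM. Neuronal and Schwann markers had 8 of 12 detected (66.7%, near the 66.2% of protein-coding genes), including SOX10 and ERBB3, which the neural crest lineages share. Of the 12, 3 were abundant (25%, against 11.8% of protein-coding genes) and 4 were not detected. L1CAM, a neural adhesion molecule, reached 425 and 395 CPM, and TUBB3, a neuronal marker, had a mean of 258 CPM. The myelin gene MBP (0.780 and 0.572 CPM) and the neuronal factor RBFOX3 (0.947 and 0.936 CPM) were under 1 CPM.

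Over all 19 gene lists used here, 359 of 432 different genes were detected and 18 were at 0 in both libraries. The lists were chosen as genes of interest in melanoma or as markers, so their higher share against the 66.2% of protein-coding genes is a description of that choice.

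The melanocyte lineage was present through its transcription factors, while its pigment enzymes were not detected. SOX10 (Gene ID 6663; GRCh38 chromosome 22, 37972312 to 37984555), the neural crest factor that activates MITF, had 164 and 191 CPM. MITF (Gene ID 4286; chromosome 3, 69739464 to 69968332), the master regulator of melanocyte genes, had 57.4 and 61.0 CPM. PAX3, which acts with SOX10 on MITF, had 16.3 and 14.9 CPM. In CPM per kilobase SOX10 stood 6.37-fold above MITF (6.07 and 6.65 in the 2 libraries), and the values of the 2 genes did not overlap. The ratio was 5.02 when the longest transcript, instead of all exons, set the length. Of 27 listed genes 17 were detected, 63.0% against 66.2% of all protein-coding genes, and the list median of 5.41 CPM was below the protein-coding median of 11 CPM. By role, 6 of 7 transcription factors, 7 of 11 melanosome proteins and both receptors were detected, against 0 of 3 melanin enzymes.

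Tyrosinase, TYR, catalyses the rate-limiting step of melanin synthesis, and DCT and TYRP1 act after it. Both TYR and DCT had a count of 0 in each library, and TYRP1 had 0.502 and 0.312 CPM, or 9 and 6 counts. With DCT set at the limit of 3 counts, SOX10 was at least 3957-fold above it in CPM per kilobase, provided that DCT was counted. PMEL, which forms the fibrils of the melanosome, had 1.34 and 1.14 CPM, and MLANA, a melanosome antigen, had 1.84 and 0.936 CPM. In a bulk library, few cells with the transcript and little transcript in each cell cannot be told apart at such levels. GPNMB, a melanosome glycoprotein also made by other cells, was the exception with 62.3 and 52.3 CPM, 45.2-fold above PMEL per kilobase. Melanosome transport genes were also detected, with MYO5A, the myosin motor, at 100.5 and 101 CPM and MLPH, its adaptor, at 33.2 and 33.6 CPM. MC1R, the receptor for melanocyte-stimulating hormone, had 22.7 and 17.1 CPM. The 4 listed MITF targets differed among themselves. CDK2, a cell cycle kinase, had 100.4 and 108 CPM and at 45.3 CPM per kilobase was well above the others, PPARGC1A, a mitochondrial regulator, had 5.46 and 4.89 CPM, and TRPM1 and BCL2A1 were under 1 CPM. BCL2A1 had 0 and 0.208 CPM and so rested on replicate 2 alone (0.208 CPM without replicate 1).

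The promoters of these genes are shown because MITF binds E-boxes of the form CACGTG or CATGTG, and some of the low pigment genes, TYR and TYRP1 among them, carry them in this window while MLANA and DCT do not. The windows are from RefSeq on GRCh38.p14 and run 5′ to 3′ on the gene's strand from 250 bases before to 50 bases after the annotated start. Capitals mark each CATGTG, or CACATG where the motif lies on the other strand, and no CACGTG occurs in the 3 windows. TYR lies on the plus strand at chr11:89177625-89177924, TYRP1 on the plus strand at chr9:12693135-12693434 and GPNMB on the plus strand at chr7:23246525-23246824.
TYR: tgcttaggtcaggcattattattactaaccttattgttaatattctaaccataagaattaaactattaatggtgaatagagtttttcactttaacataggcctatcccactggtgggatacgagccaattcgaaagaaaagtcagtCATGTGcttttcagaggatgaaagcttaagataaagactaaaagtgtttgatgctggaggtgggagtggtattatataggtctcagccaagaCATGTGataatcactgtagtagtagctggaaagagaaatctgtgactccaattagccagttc
TYRP1: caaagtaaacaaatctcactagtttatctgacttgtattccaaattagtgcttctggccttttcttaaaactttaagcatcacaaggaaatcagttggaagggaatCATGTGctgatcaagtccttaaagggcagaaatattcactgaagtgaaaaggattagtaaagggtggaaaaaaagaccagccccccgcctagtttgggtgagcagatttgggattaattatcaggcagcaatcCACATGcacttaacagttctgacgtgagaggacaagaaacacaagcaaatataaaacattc
GPNMB: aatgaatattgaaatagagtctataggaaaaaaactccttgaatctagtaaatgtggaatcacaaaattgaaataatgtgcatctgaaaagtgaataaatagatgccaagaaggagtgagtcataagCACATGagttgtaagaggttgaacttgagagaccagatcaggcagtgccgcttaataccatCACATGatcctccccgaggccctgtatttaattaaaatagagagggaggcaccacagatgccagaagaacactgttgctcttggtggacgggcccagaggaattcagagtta
Each of the 3 windows holds 2 matches, while the genes stood at 0, 0.407 ± 0.134 and 57.3 ± 7.02 CPM (mean ± SD, n = 2).

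Both strands were searched in every window. A motif was found in 14 of the 22 melanocyte genes with a window (63.6%), against 16.5% of the windows of 15331 protein-coding genes. Of the 14 genes with a motif 6 were detected, with a median of 0.865 CPM, and of the 8 without one 6 were detected, with a median of 12.9 CPM. Holding the letters of the motif thus did not go with a higher level among these 22 genes. The groups also differ in role: the transcription factors MITF, TFAP2A, PAX3 and LEF1 lack a motif, while ZEB2 and TFAP2B hold one. The part of role in the levels was not tested. SOX10, CDK2 and PMEL are among the listed genes without a window. The DCT window, on the minus strand at chr13:94549357-94549656, holds no match and is of another kind. Capitals mark its 26 CG pairs.
DCT: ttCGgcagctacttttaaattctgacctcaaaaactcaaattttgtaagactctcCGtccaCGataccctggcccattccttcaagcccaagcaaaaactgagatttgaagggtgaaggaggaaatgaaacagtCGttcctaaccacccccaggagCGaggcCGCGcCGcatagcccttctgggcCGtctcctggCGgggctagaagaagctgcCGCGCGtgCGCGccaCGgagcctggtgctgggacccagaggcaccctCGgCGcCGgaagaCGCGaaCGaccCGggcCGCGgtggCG
With 60% G and C and a ratio of observed to expected CG of 0.965, it passed the definition of a CpG-rich window used here (at least 50% G and C and a ratio above 0.6), whereas the TYR window has 37% G and C. The windows of the 2 melanin enzyme genes at 0 therefore differ in composition. Any further start of a gene was not searched, and which start these cells use was not tested.

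Genes of the dedifferentiated and neural crest states were mostly high. Of 28 listed, 26 were detected (92.9%, against 66.2% of protein-coding genes). Of these, 21 were at 10 CPM or more and 10 at 100 CPM or more. Those 10 are 35.7% of the list, against 11.8% of protein-coding genes. The list median was 73.4 CPM, against 11 CPM for all protein-coding genes. AXL (Gene ID 558), a receptor kinase that marks low-MITF melanoma cells, had 835 and 866 CPM and ranked 83rd of all genes. In CPM per kilobase AXL was 17.9-fold above MITF (18.2 and 17.7 in the 2 libraries). With the longest transcript as the length, AXL was 14.6-fold above MITF. NGFR, the neurotrophin receptor that marks neural crest-like melanoma cells, had 52.3 and 58.7 CPM. Both receptors of the list were thus present, with 174 CPM per kilobase for AXL and 16.2 for NGFR.

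Among the 11 transcription factors of this list 10 were detected. FOSL1, an AP-1 subunit induced by ERK, had 243 and 250 CPM and was the highest per kilobase. SOX9, which opposes SOX10 in melanoma, had 73.6 and 90.4 CPM, so transcripts of both SOX factors were present. ZEB1, a repressor of epithelial genes, had 50.9 and 56.5 CPM, and ZEB2, which melanocytes use in its place, had 23.0 and 26.7 CPM. SNAI2 was the factor not detected, at 0.279 and 0.468 CPM. The secreted and matrix members included WNT5A, a ligand of non-canonical Wnt signalling, with 74.3 and 77.7 CPM. CCN1, a matrix-associated target of YAP and TEAD, had 121 and 94.5 CPM, higher in replicate 1. VIM, the mesenchymal intermediate filament, was the highest member per kilobase, at 1090, with 2245 and 2409 CPM, and CD44, a hyaluronan receptor, had 1080 and 1116 CPM.

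The cadherins were split. CDH2, N-cadherin, had 133 and 136 CPM, and CDH1, the E-cadherin through which melanocytes attach to keratinocytes, had a count of 0 in both libraries. Per kilobase CDH2 was at least 1831-fold higher, with CDH1 set at 3 counts and provided that CDH1 was counted.

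The receptor tyrosine kinases were concentrated in a few genes. Of 36 listed, 24 were detected (66.7%, the background share being 66.2%), 7 were abundant and 2 were at 0. AXL stood highest per kilobase at 174, followed by EPHA2, an ephrin receptor with 569 and 565 CPM, at 143, and MET, the receptor for hepatocyte growth factor with 362 and 416 CPM, at 58.1. None of these 3 overlapped the next in order. Below them, DDR1, EPHB4, DDR2 and IGF1R, with 220 and 212 CPM for the insulin-like growth factor receptor IGF1R, lay between 27.5 and 17.7 CPM per kilobase. EPHB4 and DDR2 overlapped. EGFR (124 and 111 CPM), ERBB3 (68.4 and 64.0 CPM) and FGFR1 (69.7 and 75.1 CPM), receptors known from resistance to BRAF inhibition, lay within 10.4 to 11.4 CPM per kilobase and their ranges overlapped in turn. Of the 33 neighbouring pairs in the order of all receptors with a count, 18 overlapped, most of them at the low end.

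In the family of AXL, TYRO3 had 47.0 and 49.9 CPM and MERTK 0.390 and 0.364 CPM, so that AXL was 29.4-fold above TYRO3 and 1658-fold above MERTK per kilobase. PDGFRB, a platelet-derived growth factor receptor that can take over in resistant melanoma, had 28.3 and 20.8 CPM. KIT, the stem cell factor receptor on which melanocytes depend, had 0.0557 and 0.156 CPM, or 1 and 3 counts, and was at 0.0557 CPM without replicate 2. The 4 receptors of the EGF family had 3 detected and ERBB4 at 0, and FLT3, a receptor of blood progenitors, was also at 0. The 3 receptors for vascular endothelial growth factor, FLT1, KDR and FLT4, were all under 1 CPM.

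The MAPK pathway was complete at the level of transcripts, with 26 of 26 listed genes detected and a median of 103 CPM. Among all protein-coding genes 66.2% were detected, and their median was 11 CPM. Within the kinase cascade, BRAF (69.1 and 75.9 CPM) was the lowest per kilobase, at 4.99, and MAP2K2, one of the MEK kinases, the highest, at 65.0. NRAS had 137 and 152 CPM and, at 32.4 CPM per kilobase, lay above HRAS, at 24.6. The 7 feedback inhibitors of ERK were all at 10 CPM or more and 5 of them were abundant. PHLDA1, with 1074 and 985 CPM, was the highest of them per kilobase at 174, followed at 103 by DUSP4, a nuclear phosphatase of ERK, with 769 and 724 CPM. DUSP6, the cytoplasmic ERK phosphatase, had 186 and 184 CPM and SPRY2, an inhibitor of receptor signalling, 137 and 135 CPM. DUSP4 was 2.45-fold above DUSP6 per kilobase (3.21 by the longest transcript). Of the ERK output factors, the ETS family members ETV4 (151 and 159 CPM) and ETV5 (104 and 110 CPM) were abundant, while FOS, an immediate-early gene, had 2.79 and 2.97 CPM and EGR1, another, 4.85 and 4.94 CPM. IER3, also known as an immediate early response gene, had 67.9 and 69.7 CPM, and JUN, listed with the dedifferentiated genes, 56.0 and 64.6 CPM, so genes of this kind were not uniformly low.

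**Figure D2:**
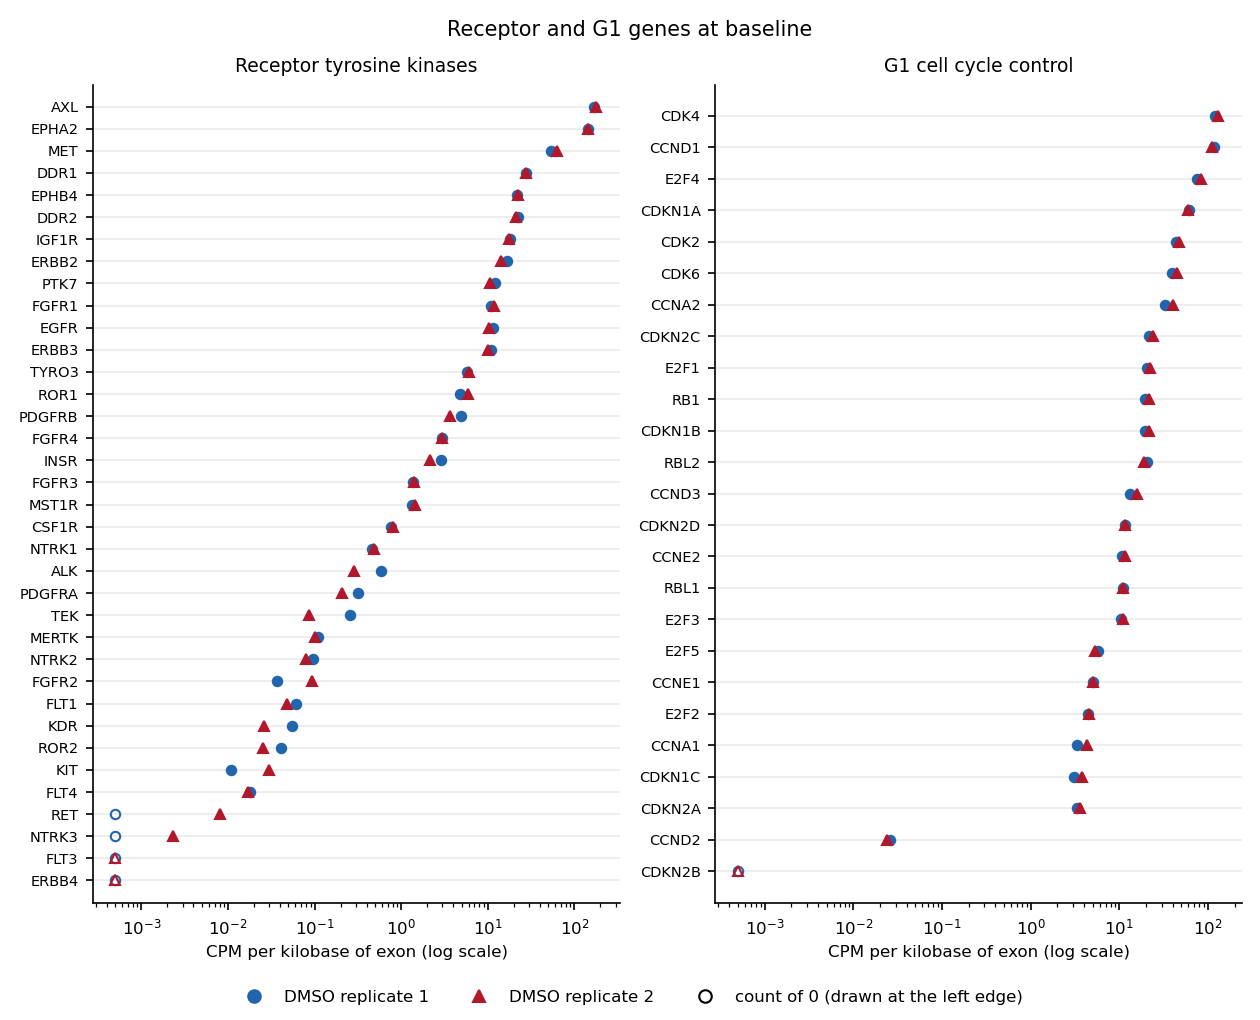
CPM per kilobase of exon (log scale) of 36 receptor tyrosine kinases (left) and 25 genes of G1 control (right), ordered by level, with a circle for DMSO replicate 1 and a triangle for replicate 2; open symbols at the left edge are counts of 0. AXL at 174 heads the receptors and CDK4 at 124 the G1 genes, while CCND2 and CDKN2B lie at the bottom on the right.

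The G1 genes carried cyclin D1 with both of its kinases and little of the INK4 inhibitors of the CDKN2A locus. CCND1 (Gene ID 595), cyclin D1, had 501 and 478 CPM. CDK6 had 463 and 527 CPM and CDK4 247 and 269 CPM, but CDK6 transcripts are long, and per kilobase CDK4 (124) was 2.95-fold above CDK6 (42.2). CCND1 lay between them at 114 CPM per kilobase, and no neighbours among these genes overlapped. CCND3, cyclin D3, had 43.1 and 51.2 CPM and CCND2, cyclin D2, 0.167 and 0.156 CPM. Cyclin D1 was 7.79-fold above cyclin D3 per kilobase (5.38 when the longest transcript set the length) and 4553-fold above cyclin D2, so D1 was the main D cyclin transcript. CCNE1, cyclin E1, had 10.4 and 10.6 CPM. RB1, the substrate of these kinases, had 94.2 and 104 CPM and E2F1, the factor RB restrains, 52.1 and 55.9 CPM. Of the 25 genes listed, 23 were detected (92%, against 66.2% of protein-coding genes) and the median was 54.0 CPM.

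The CDK inhibitors ranged from abundant to absent. CDKN1A, the p21 inhibitor induced by p53, had 147 and 143 CPM and was the highest per kilobase at 59.9. CDKN2C had 54.0 and 59.8 CPM and CDKN1B, the p27 inhibitor, 52.4 and 57.5 CPM, and the values of these 2 genes overlapped per kilobase. CDKN2A (Gene ID 1029; chromosome 9, 21967752 to 21995324), which encodes the INK4A and ARF suppressors, had 4.01 and 4.37 CPM, from 72 and 84 counts. CDKN2B (Gene ID 1030; chromosome 9, 22002903 to 22009313), the neighbouring INK4 gene, had a count of 0 in both libraries.

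Levels varied along this stretch of chromosome 9, which was examined after these values were seen. MTAP, the methionine salvage enzyme next to CDKN2A on chromosome 9, had 287 and 325 CPM. MTAP was 18.1-fold above CDKN2A and, provided that CDKN2B was counted, at least 3116-fold above CDKN2B per kilobase. The antisense RNA of the locus, CDKN2B-AS1, was at 0 in both libraries, and DMRTA1, the next protein-coding gene on the other side, had 4.51 and 4.21 CPM. MIR31HG, a long non-coding RNA on the far side of MTAP, had 18.1 and 16.3 CPM. Whether the genes at 0 are absent from the genome of this line, silent or not counted was not tested. The CDKN2B window is shown with its 25 CG pairs in capitals, from the minus strand at chr9:22009256-22009555 (RefSeq, GRCh38.p14).
CDKN2B: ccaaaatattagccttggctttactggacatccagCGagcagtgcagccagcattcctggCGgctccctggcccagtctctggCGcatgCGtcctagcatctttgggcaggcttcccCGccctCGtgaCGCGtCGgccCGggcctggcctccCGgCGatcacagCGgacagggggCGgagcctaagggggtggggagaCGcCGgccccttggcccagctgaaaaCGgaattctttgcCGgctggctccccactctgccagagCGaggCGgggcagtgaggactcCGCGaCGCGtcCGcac
It has 67.3% G and C and a CG ratio of 0.736, the composition found in most promoters of detected genes, although the gene had no count.

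Genes of replication and mitosis were high throughout, with 36 of 36 detected, 24 of them abundant, and a median of 132 CPM. Of all protein-coding genes 66.2% were detected and 11.8% abundant, with a median of 11 CPM. TOP2A, the topoisomerase of dividing cells, had 563 and 618 CPM and MKI67, the Ki-67 proliferation marker, 549 and 572 CPM. RRM2, the regulated subunit of ribonucleotide reductase, had 265 and 365 CPM and CCNB1, cyclin B1, 215 and 260 CPM. PCNA, the replication clamp, had 123 and 148 CPM. FOXM1 and MYBL2, factors that drive the late cell cycle genes, had 146 and 168 CPM and 120 and 154 CPM. TERT, the catalytic subunit of telomerase, was detected at 11.5 and 10.4 CPM. Of the 36 genes, 35 were higher in replicate 2, with a median log2 ratio of 0.18 against 0.04 for all genes at 10 CPM or more. With total counts as the scale 31 of 36 were higher in replicate 2. Replicate 2 also tended to be higher for short transcripts, as given below, and the part of that tendency in the difference was not tested.

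The p53 pathway was present at moderate levels. Of 37 genes 35 were detected (94.6%, against 66.2% of protein-coding genes), and 7 were abundant (18.9%, against 11.8%). The list median was 30.4 CPM, above the 11 CPM of all protein-coding genes. The median of detected protein-coding genes alone was 32.4 CPM. The inhibitors of the pathway MDM2, a ubiquitin ligase, and MDM4, its relative, had 260 and 288 CPM and 197 and 162 CPM. MDM2 and MDM4 were 1.21-fold apart per kilobase, with the ratio at 1.04 in replicate 1 and 1.40 in replicate 2. TP73 and TP63, factors with related DNA-binding domains, differed, with TP73 at 13.9 and 10.9 CPM and TP63 at 1 count in all.

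Among arrest targets, CCNG1, cyclin G1, had 203 and 197 CPM and GADD45A, a stress sensor, 25.2 and 20.2 CPM. All 9 genes of this role were detected. BAX, the pore-forming death effector, had 57.1 and 59.4 CPM and BBC3, which encodes PUMA, 8.81 and 10.1 CPM. All 9 apoptosis targets were detected as well. ZMAT3, an RNA-binding p53 target, had 49.7 and 41.7 CPM, RPS27L 44.1 and 50.4 CPM, FDXR, a mitochondrial reductase, 22.6 and 25 CPM, and GDF15, a secreted stress factor, 14.3 and 16.2 CPM. SPATA18, a p53 target of mitochondrial quality control, was at 0 in both libraries.

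In the BCL2 family MCL1 (361 and 434 CPM) was the highest per kilobase at 97.3, followed by the death effector BAX at 41.3 and by BCL2L1, which encodes BCL-XL (107 and 103 CPM), at 36.8. BCL2 itself had 14.0 and 13.1 CPM, and MCL1 was 84.3-fold above it per kilobase (55.7 by the longest transcript). BCL2L11, which encodes the ERK-restrained killer BIM, had 17.6 and 17.5 CPM. Of 15 members 13 were detected (86.7%, against 66.2% of protein-coding genes), and no neighbours in the order of the 5 survival genes overlapped.

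The PRMT5 methylosome was detected in full. PRMT5 (Gene ID 10419) had 66.4 and 75.9 CPM and WDR77, its obligate partner, 80.7 and 93.9 CPM. Per kilobase PRMT5 was at 0.802 of WDR77, and their values did not overlap. The adaptors CLNS1A, which presents spliceosomal proteins, and RIOK1 had 124 and 143 CPM and 33.1 and 37.2 CPM. MAT2A, which makes the methyl donor S-adenosylmethionine, had 429 and 419 CPM, and MTAP, whose absence in many melanomas raises an inhibitor of PRMT5, was abundant as given above. The liver form MAT1A was under 1 CPM. PRMT1, the main enzyme of asymmetric arginine methylation, had 227 and 255 CPM and was 6.10-fold above PRMT5 per kilobase, the highest of the list at 166. CARM1, another asymmetric enzyme, had 149 and 159 CPM. Of 18 genes 16 were detected (88.9%, against 66.2% of protein-coding genes). The list median was 67.9 CPM, and PRMT8, a brain form, was at 1 count. Of the 16 genes at 10 CPM or more, 14 were higher in replicate 2 under each of the 6 scalings. With the TMM scaling used throughout, the median log2 ratio of the 16 was 0.18, against 0.04 for all genes at 10 CPM or more. Under each scaling 14 of the 16 also lay above the median of all genes.

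Matrix and adhesion genes formed one of the highest lists. Of 55 genes 51 were detected and 31 were abundant (56.4%, against 11.8% of protein-coding genes), and the median was 116 CPM. Their summed level was 15593 and 15247 CPM. The 14 glycoproteins were split, with a median of 26.2 CPM. Of these, 8 were at 10 CPM or more and 6 were abundant (42.9%, against 11.8% of protein-coding genes). THBS2, VTN and POSTN were low, with means of 2.19, 2.06 and 4.32 CPM. Among the high ones, THBS1, a thrombospondin of the matrix, had 1598 and 1902 CPM. CSPG4, the melanoma-associated chondroitin sulfate proteoglycan, had 897 and 821 CPM, and SPARC 775 and 884 CPM. TNC, tenascin C, had 689 and 616 CPM and FN1, fibronectin, 367 and 353 CPM. SPP1, osteopontin, had 9.31 and 13.5 CPM and stood at 6.96 CPM per kilobase, against 225 for THBS1 and 224 for SPARC, whose values overlapped.

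Basement membrane components were high, and the listed chains of fibrillar collagens I and III were low per kilobase. Other collagens did not follow that split. COL6A1 led the collagens at 85.2 CPM per kilobase, above COL4A2 at 77.2, and COL5A2, a chain of fibrillar collagen V, stood at 28.9. COL4A1, a chain of the basement membrane collagen, had 236 and 253 CPM and its partner COL4A2 500.0 and 503 CPM. COL1A1, a chain of fibrillar collagen I, had 13.9 and 12.5 CPM, and COL4A1 was 24.1-fold above it per kilobase (18.8 by the longest transcript). COL1A2, with which COL1A1 assembles, had 0.167 and 0.260 CPM, and COL3A1 had 1 count in all. All 8 laminin chains were detected, 6 of them abundant. Per kilobase the beta chain LAMB1 (1217 and 1072 CPM) led at 200 CPM, followed by the gamma chain LAMC1 (1023 and 1021 CPM) at 130 CPM and the alpha chain LAMA5 (1117 and 931 CPM) at 89.6 CPM. All 12 integrin chains were at 10 CPM or more. ITGA3, a laminin receptor chain, was the highest per kilobase at 175, and ITGB1, the common partner, had 345 and 388 CPM. ITGB3 had 196 and 186 CPM and ITGAV 123 and 138 CPM, which together form a receptor known from invasive melanoma.

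The matrix proteases were uneven. MMP2, a gelatinase, had 305 and 283 CPM and MMP14, the membrane protease that activates it, 117 and 115 CPM. MMP1, an interstitial collagenase, had 19.7 and 21.9 CPM, and MMP9, the other gelatinase, 0.111 and 0.104 CPM, or 2 counts in each library. Of the inhibitors, TIMP3 had 1014 and 969 CPM and TIMP1 82.6 and 97.8 CPM, 2.13-fold apart per kilobase.

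The class I antigen presentation pathway was present with unequal heavy chains. B2M, the shared light chain, had 387 and 423 CPM, HLA-C 69.3 and 62.7 CPM and HLA-B 21.2 and 19.9 CPM. Per kilobase B2M stood at 429, HLA-C at 43.0 and HLA-B at 13.3. The values of these genes did not overlap, but HLA genes are alike in sequence and vary between genomes, so reads may be lost or assigned to a relative. HLA-G was at 0 in both libraries. All 12 genes of peptide loading and processing were detected, among them TAP1, a peptide transporter subunit, at 31.4 and 28.7 CPM and TAPBP, tapasin, at 89.0 and 82.5 CPM. The chaperones CALR and CANX, which serve many other proteins of the secretory pathway, had 846 and 941 CPM and 742 and 867 CPM. Per kilobase CALR, at 470 CPM, and B2M led the list, their values overlapping, with CANX below both at 189. The immunoproteasome subunits PSMB8 and PSMB9, which interferon induces, had 36.3 and 37.5 CPM and 13.3 and 14.4 CPM. NLRC5, the activator of class I genes, had 37.7 and 30.4 CPM.

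Class II genes, which immune cells and some melanomas express, were present in part, with 7 of 12 detected (58.3%, against 66.2% of protein-coding genes). CIITA, their activator, had 14.0 and 12.3 CPM. CD74, the invariant chain, had 76.6 and 85.8 CPM and HLA-DRA 13.5 and 17.0 CPM. HLA-DRB1 was near 1 CPM (1.28 and 1.2 CPM), and HLA-DQA1 and HLA-DQB1 were at 2 counts or fewer over both libraries. Of the blood markers in the same libraries, CD68 (given above), LYZ, CD4 and CSF1R were detected, while PTPRC had 1 count, CD14 was near 0.2 CPM, and MS4A1 was at 0. Their part in these class II transcripts was not tested. In all, 28 of 34 antigen presentation genes were detected (82.4%, against 66.2% of protein-coding genes), and the list median was 20.2 CPM.

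Ligands that immune cells read were led by CD276, a checkpoint molecule of the B7 family with 161 and 172 CPM, and PVR, the ligand of TIGIT with 120 and 126 CPM. CD274, which encodes PD-L1, had 6.08 and 6.71 CPM, and CD276 was 27.6-fold above it per kilobase. CD47, which inhibits phagocytosis, had 65.2 and 68.7 CPM. The ligands of the NKG2D receptor on natural killer cells were low, with MICB at 13.1 and 15.3 CPM, MICA at 10.03 and 12.2 CPM and ULBP2 at 6.74 and 7.02 CPM, and ULBP1 was at 0. Of 19 ligands 13 were detected (68.4%, near the 66.2% of protein-coding genes), and VTCN1 was the other gene at 0. The list median of 4.24 CPM was below the protein-coding median of 11 CPM.

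Cancer-testis antigens, genes of the germ line that tumours switch on, differed widely among themselves. MAGEA4, with 639 and 728 CPM, was the highest per kilobase, above SPANXB1, which had 33.3 and 37.7 CPM, MAGEC2, which had 139 and 155 CPM, and MAGEA3, which had 111 and 135 CPM. PRAME, a melanoma antigen, had 148 and 134 CPM. CTAG1B, which encodes NY-ESO-1, had 1.5 and 1.2 CPM and CTCFL was at 0. MAGEA4 was 4.95-fold above MAGEA3 per kilobase, while MAGEC2 and MAGEA3 overlapped. Of 21 antigens 17 were detected (81%, against 66.2% of protein-coding genes), 4 of them abundant (19%, against 11.8%). The list median of 4.62 CPM was below the protein-coding median of 11 CPM. Many of these genes have near-identical copies, as in the MAGEA, GAGE and SPANX families, and their split is uncertain.

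**Figure D3:**
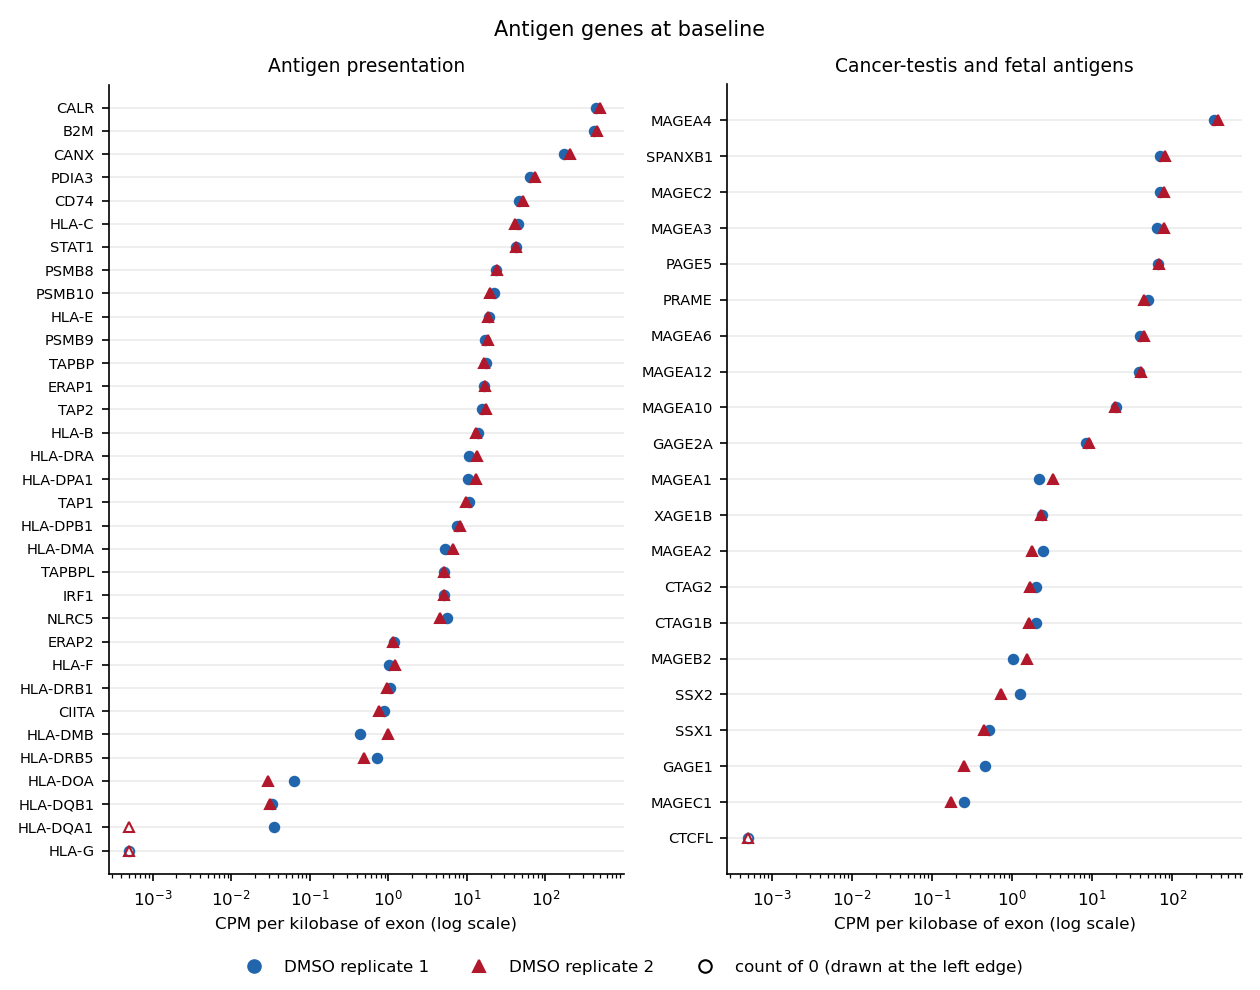
CPM per kilobase of exon (log scale) of antigen presentation genes (left) and 21 cancer-testis and fetal antigens (right), ordered by level, with a circle for DMSO replicate 1 and a triangle for replicate 2; open symbols at the left edge are counts of 0. CALR and B2M lead on the left with HLA-B at 13.3, and MAGEA4 at 354 leads on the right, above all others there.

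The tumour suppressors and oncogenes of melanoma were almost all present, with 19 of 20 detected and KIT the one that was not. That is 95%, against 66.2% of protein-coding genes. PTPN14, a phosphatase of the Hippo pathway, had 631 and 585 CPM and DDX3X, an RNA helicase, 534 and 606 CPM. RAC1, a GTPase of cell motility, had 227 and 280 CPM. MYC had 16.8 and 16.9 CPM, which placed it at rank 8684 of 28395 genes.

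Level went with base composition at the promoter. RefSeq gave a 300-base window for 15331 protein-coding genes, and 64.4% of these were CpG-rich. The share was 23.4% among genes at 0, 38.4% among those with a count but under 1 CPM in a library, 62.5% from 1 CPM, 83.9% from 10 CPM and 86.2% from 100 CPM, so it rose with each class. A TATA box, searched as TATAAA on both strands, was in 9.54% of all windows, in 22.5% of genes at 0 and in 5.79% of detected genes. The share with either form of the E-box ran from 15.2% in the low class to 18.2% at 0. The CATGTG form alone was in 13.0% of windows of genes at 0, 11.4% of those under 1 CPM, 8.04% from 1 CPM, 6.06% from 10 CPM and 6.43% from 100 CPM, so it was less frequent in the higher classes. Of the 11 listed genes at 0 that have a window, 6 had a CpG-rich one: DCT, ERBB4, FLT3, CDKN2B, SPATA18 and ULBP1. The other 5, among them TYR, HLA-G and VTCN1, did not.

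The vehicle libraries were alike for most genes. Of 10094 genes averaging 10 CPM or more, 9415 lay within 1.25-fold between the libraries (93.3%), 66 lay beyond 1.5-fold and 7 beyond 2-fold (0.0693%). The median coefficient of variation was 5.69%, the median log2 ratio of replicate 2 to replicate 1 was 0.04, and its quartiles were -0.08 and 0.14. With total counts as the scale the median was -0.03 and with DESeq2 size factors 0.07, so the side on which a typical gene fell depended on the scale. H3C14, a histone gene with near-identical copies, was the gene with the largest ratio, at 8.47 and 30.6 CPM (3.61-fold). HSPA1A and HSPA1B, near-identical genes of the inducible heat shock protein HSP70, followed at 18.8 and 61.3 CPM (3.26-fold) and 23.8 and 77.1 CPM (3.24-fold). In the other direction SMG1P2, a pseudogene, had 17.9 and 7.33 CPM, SCARNA5, a small Cajal body RNA, 18.6 and 8.06 CPM, and FER1L4, a pseudogene, 34.4 and 16.6 CPM. None of these 6 is among the melanoma genes described above. Across 9787 protein-coding genes the log2 ratio was weakly related to exon length, with a Spearman rho of -0.234, a description across genes that share the same libraries. Its median was 0.17 for genes up to 1 kb, 0.09 from 1 to 2 kb, 0.05 from 2 to 4 kb, 0.02 from 4 to 8 kb and -0.03 above 8 kb. Replicate 2 had higher values for proliferation and methylosome genes and lower ones for matrix genes. Of 45 matrix genes, 17 were higher in replicate 2 (14 to 21 over the 6 scalings), with a median log2 ratio of -0.06. Under each scaling 16 of the 45 lay above the median of all genes. These differences stand beside the gradient with length, and its part in them was not tested.

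**Figure D4:**
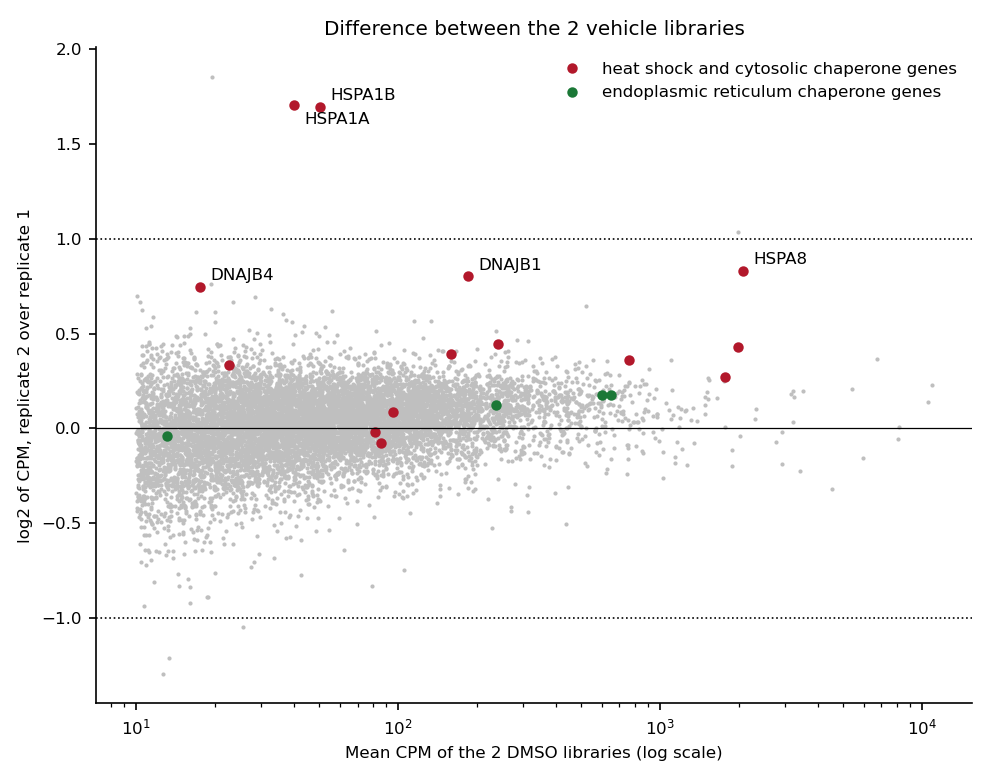
Log2 ratio of replicate 2 to replicate 1 (vertical axis) against mean CPM of the 2 DMSO libraries (horizontal log axis) for 10094 genes at 10 CPM or more, with heat shock and cytosolic chaperone genes in red and endoplasmic reticulum chaperone genes in green. Red also includes the mitochondrial chaperones HSPD1 and HSPE1 and the factor HSF1, and green also includes the stress factor DDIT3, which is not a chaperone. Most points lie between the dotted lines at 2-fold, and HSPA1A and HSPA1B lie at 1.7, above the rest of the chaperones.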

How the data were processed

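Raw read counts per NCBI Gene ID are deposited by the authors, 1 table per library, with no normalization. Tools named in the submitters' processing notes are featureCounts 1.6.2, HISAT2, cutadapt 1.7, CASAVA 1.8.2 and limma, with build hg38. Which annotation, strand setting and multi-mapping rule served the counting is not given in the sources used here. Reads of near-identical, overlapping or antisense genes are therefore uncertain. Of 28395 IDs, 27745 matched a RefSeq symbol (GRCh38.p14), and the 650 others held 0.233% and 0.346% of the counts of the vehicle libraries.

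Library sizes were scaled by TMM in edgeR 4.0.16 (R 4.3.3) over all 6 libraries, on the 16381 genes that filterByExpr retained (minimum count 10). CPM is given per library or as mean ± SD (n = 2). Intervals and limits cover counting error only. Lengths are the union of exons of the RefSeq-linked transcripts of GENCODE 29, known for 99.5% of protein-coding genes. The 2 libraries differed by more than counting noise (chi-square per degree of freedom 7.76 over 17237 genes) and were kept as 2 replicates. With 1 group of 2 there is no test. The libraries described, the gene lists and their members were chosen with earlier results of these data known. Named genes are the key members of each list, the 2 highest of each list, the 10 highest overall and among protein-coding genes, the 3 largest ratios between libraries in each direction, and members that complete a family. Members named outside that rule, mainly genes at 0, the extremes of a family and the genes of lists added later, were chosen after their values were seen. Values of a few listed genes are not reported here, and those genes are not drawn in the figures. The scripts were tested on simulated data.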

Additional observations from a re-analysis of the deposited data

Results flagged for a closer look

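A signal lay in a gene ID that none of the lists covers. The ID 100500815 has no symbol in the RefSeq table used here, yet it ranked 23rd of all 28395 IDs with a mean of 1982 CPM (1981.67, SD 965, n = 2). It had 23315 counts in replicate 1 and 51211 in replicate 2, or 1299 and 2664 CPM, a ratio of 2.05. It is 1 of the 7 genes beyond 2-fold between the libraries, and what it encodes was not determined.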

How the results depend on the processing

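Total counts, TMM on the 2 vehicle libraries alone, DESeq2 size factors, no filter before TMM, a library size without small structural RNA genes, other detection thresholds and leaving out each library were tried. The number of detected genes went from 14162 to 15506 around 14193, and from 14317 to 14762 with 1 library left out. Detected members of all lists went from 359 to 374, and all 152 recomputed list counts stayed within 1.5 times. The median level of the listed genes, 48.8 CPM (SD 0.698 between libraries), was 50.9 CPM without the small structural RNA genes and 49.2 to 50.1 CPM with 1 library left out. The 7 genes beyond 2-fold became 165 among genes from 1 CPM, 1 among genes from 100 CPM and 3 among protein-coding genes alone, an alternative chosen after seeing the data, as were the 0.5 CPM threshold for promoters and the longest transcript as length. The CpG-rich share of detected genes went from 79.4% to 77.6% at 0.5 CPM. Of 145 key genes, 5 moved by over 1.5 times when a library was left out: besides KIT, KRT5, FAP and BCL2A1, given above, PTPRC went from 0.0279 to 0.0557 CPM without replicate 2. Per kilobase, the median percentile of antigen presentation rose by 9.51 points and that of the melanocyte list changed by -6.63. No paired analysis was possible because the report holds 1 group and its results come from no test. The difference between libraries cannot be computed with a library left out. Depth limits statements below about 1 CPM, which is under 20 counts a library.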

Other observations

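Glycolysis, a list of 21 genes chosen after the data were seen, was among the most abundant groups. Of these genes 19 were detected (90.5%, against 66.2% of protein-coding genes), 15 of them at 100 CPM or more, and the median was 276 CPM. Among isoforms, PKM stood at 2953 and 3347 CPM and PKLR, the liver and red cell pyruvate kinase, at 0.0557 and 0.312 CPM. ALDOA, the aldolase of most tissues, had 1437 and 1602 CPM. Both hexokinases were abundant, HK1 with 196 and 213 CPM and HK2 with 204 and 223 CPM. Both lactate dehydrogenase genes were high, LDHA with 968 and 1242 CPM and LDHB with 813 and 956 CPM.

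Several heat shock genes, a list also chosen after the data were seen, were higher in replicate 2. Besides HSPA1A and HSPA1B, HSPA8, the constitutive HSP70, had 1490 and 2652 CPM (1.78-fold), and its co-chaperone DNAJB1 had 135 and 235 CPM (1.74-fold). HSP90AA1 had 1692 and 2281 CPM (1.35-fold), and its relative HSP90AB1 1603 and 1931 CPM (1.2-fold). The cytosolic BAG3 differed little, at 92.5 and 98.4 CPM (1.06-fold). The mitochondrial chaperones HSPD1 and HSPE1 were 1.28-fold and 1.26-fold higher. The small heat shock gene HSPB1 (0.947) and the factor HSF1 (0.988) had ratios near 1. The endoplasmic reticulum chaperones HSPA5 and HSP90B1 each differed by 1.13-fold, and DDIT3, a stress factor listed with them, had a ratio of 0.972. The difference was not tested, since each side is 1 library.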
